A study of Mus musculus with 6 samples.

Results

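Phosphodiesterases break down the second messengers cAMP and cGMP, and the 10 genes described here are Pde10a, Pde8b, Pde4d, Pde4b, Pde3a, Pde5a, Pde1a, Pde1c, Pde7b and Pde2a. They were picked by symbol, as 10 of the 33696 genes counted in nuclei of the mouse left ventricle, and each symbol stood for 1 gene identifier. For every gene the level was the number of its UMIs (unique molecular identifiers, each marking 1 captured RNA molecule) scaled to the total of the same library and class of nuclei, written as CPM, the usual scaling of counts to a fixed total.

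There were 6 libraries of single-nucleus RNA sequencing in 3 groups, with 2 libraries per group, all from male mice labelled as 12 weeks old. WT-CD mice were wild-type (WT) littermates on a control diet (CD). R403Q-CD mice had the genotype Myh6+/R404Q (R403Q), in which 1 allele of the cardiac myosin heavy chain gene carries the mutation, and ate the same diet. Counts per gene cannot check this genotype, since the mutation changes a base of Myh6 and not its number of copies. R403Q-EMPA mice had that genotype and ate the diet with 0.15 mg/g empagliflozin (EMPA), which blocks the sodium-glucose cotransporter SGLT2 of the kidney, a dose put at about 15 mg/kg in the labels. The diets were started in mice of 9 to 10 weeks, and the protocol describes mice taken for myocardial RNA sequencing after 2 weeks of feeding. The labels also state a longer course, which mice of this age could not have completed. No wild-type group received EMPA, so R403Q-EMPA against WT-CD differs in both genotype and diet. Nuclei came from frozen tissue, and beyond n = 2 nothing states that the libraries of a group were separate animals, so p-values measure only the spread between these samples.

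After filters 46005 of 69249 barcodes were kept, 6409 to 9514 per library, with median UMIs per nucleus of 2663 to 4065. Library totals were 31787308 to 45397128 UMIs. Pairs of libraries shared 23 to 56 barcodes. Class names rest on marker genes, since the labels do not type single nuclei, and carry "-like" for that reason. Of 26 clusters, 10 classes held at least 20 nuclei in every library and were tested. These were fibroblast-like, cardiomyocyte-like, endothelial-like, endocardial-like, lymphatic endothelial-like, pericyte-like, smooth muscle-like, myeloid-like, lymphoid-like and epicardial-like nuclei. The clustering used variable genes of the same nuclei, so a class against the other classes is a description with no test. The labels list epicardial fat among the cell types, but no cluster met the adipocyte markers.

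The first R403Q-EMPA library stood apart in makeup. Fibroblast cluster 2, led by Ltbp2, Cilp and Postn, was 50.6% of its fibroblast-like nuclei against 10.3 to 26.2% in the other 5 libraries. Cardiomyocyte cluster 17, led by Mylk4, was 10.1% of its cardiomyocyte-like nuclei against 25.5 to 78.2%. Every called change below is therefore given with and without it. The share of barcodes over the mitochondrial limit of 5% moved with the groups, at 22 and 18.9% for WT-CD, 27.2 and 32.9% for R403Q-CD, and 34.4 and 39.0% for R403Q-EMPA, and all 5 calls of the 10 genes held when that limit was not applied.

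Phosphodiesterase families differ in which messenger they cleave and in what controls them. PDE4, PDE7 and PDE8 enzymes cleave cAMP, PDE5 cleaves cGMP, and PDE1, PDE2, PDE3 and PDE10 enzymes cleave both. Calcium and calmodulin activate PDE1, cGMP stimulates PDE2, and cGMP competes with cAMP at PDE3. In the heart PDE3 and PDE4 limit the cAMP that beta-adrenergic receptors raise, and in vascular muscle PDE5 limits the cGMP that nitric oxide raises and is the target of sildenafil.

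Pde10a gave 3 of the 5 calls described below, and its promoters are shown for that reason. RefSeq lists 2 start windows for it on GRCm38.p6, an earlier build than the GRCm39 named in the submitters' processing notes. Each window runs from 250 bases before to 50 bases after a start, on the + strand, at chr17:8801495-8801794 and chr17:8849735-8850034. Capitals mark the GC box GGGCGG or its reverse complement, a motif that Sp1-type factors bind.
Pde10a first window: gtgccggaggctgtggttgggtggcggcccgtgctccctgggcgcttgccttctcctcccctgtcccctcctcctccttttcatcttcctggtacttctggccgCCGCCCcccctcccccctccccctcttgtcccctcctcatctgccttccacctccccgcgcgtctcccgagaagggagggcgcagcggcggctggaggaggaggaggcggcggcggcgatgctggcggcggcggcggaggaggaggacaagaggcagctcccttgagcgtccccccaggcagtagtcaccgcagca
Pde10a second window: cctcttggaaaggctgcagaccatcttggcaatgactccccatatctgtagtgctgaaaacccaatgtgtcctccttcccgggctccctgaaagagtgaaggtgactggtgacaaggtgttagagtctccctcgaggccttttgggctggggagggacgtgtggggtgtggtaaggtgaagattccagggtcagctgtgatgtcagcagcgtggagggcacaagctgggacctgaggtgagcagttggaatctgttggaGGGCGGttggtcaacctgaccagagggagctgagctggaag
Over both strands, windows of 9 of the 10 genes were searched, 26 windows of 300 bases in all, and Pde3a had no entry. The full cAMP response element TGACGTCA was in 0 of 26 windows and in 1.79% of all 32851 windows. Its shorter core TGACG, which the full element contains, was in 4 of 26 windows and in 20.8% of all. The GC box was in 6 of 26 windows, of Pde10a, Pde2a, Pde5a and Pde8b, and in 35.7% of all. A match is a description of the letters, not a bound site.

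**Figure D1:**
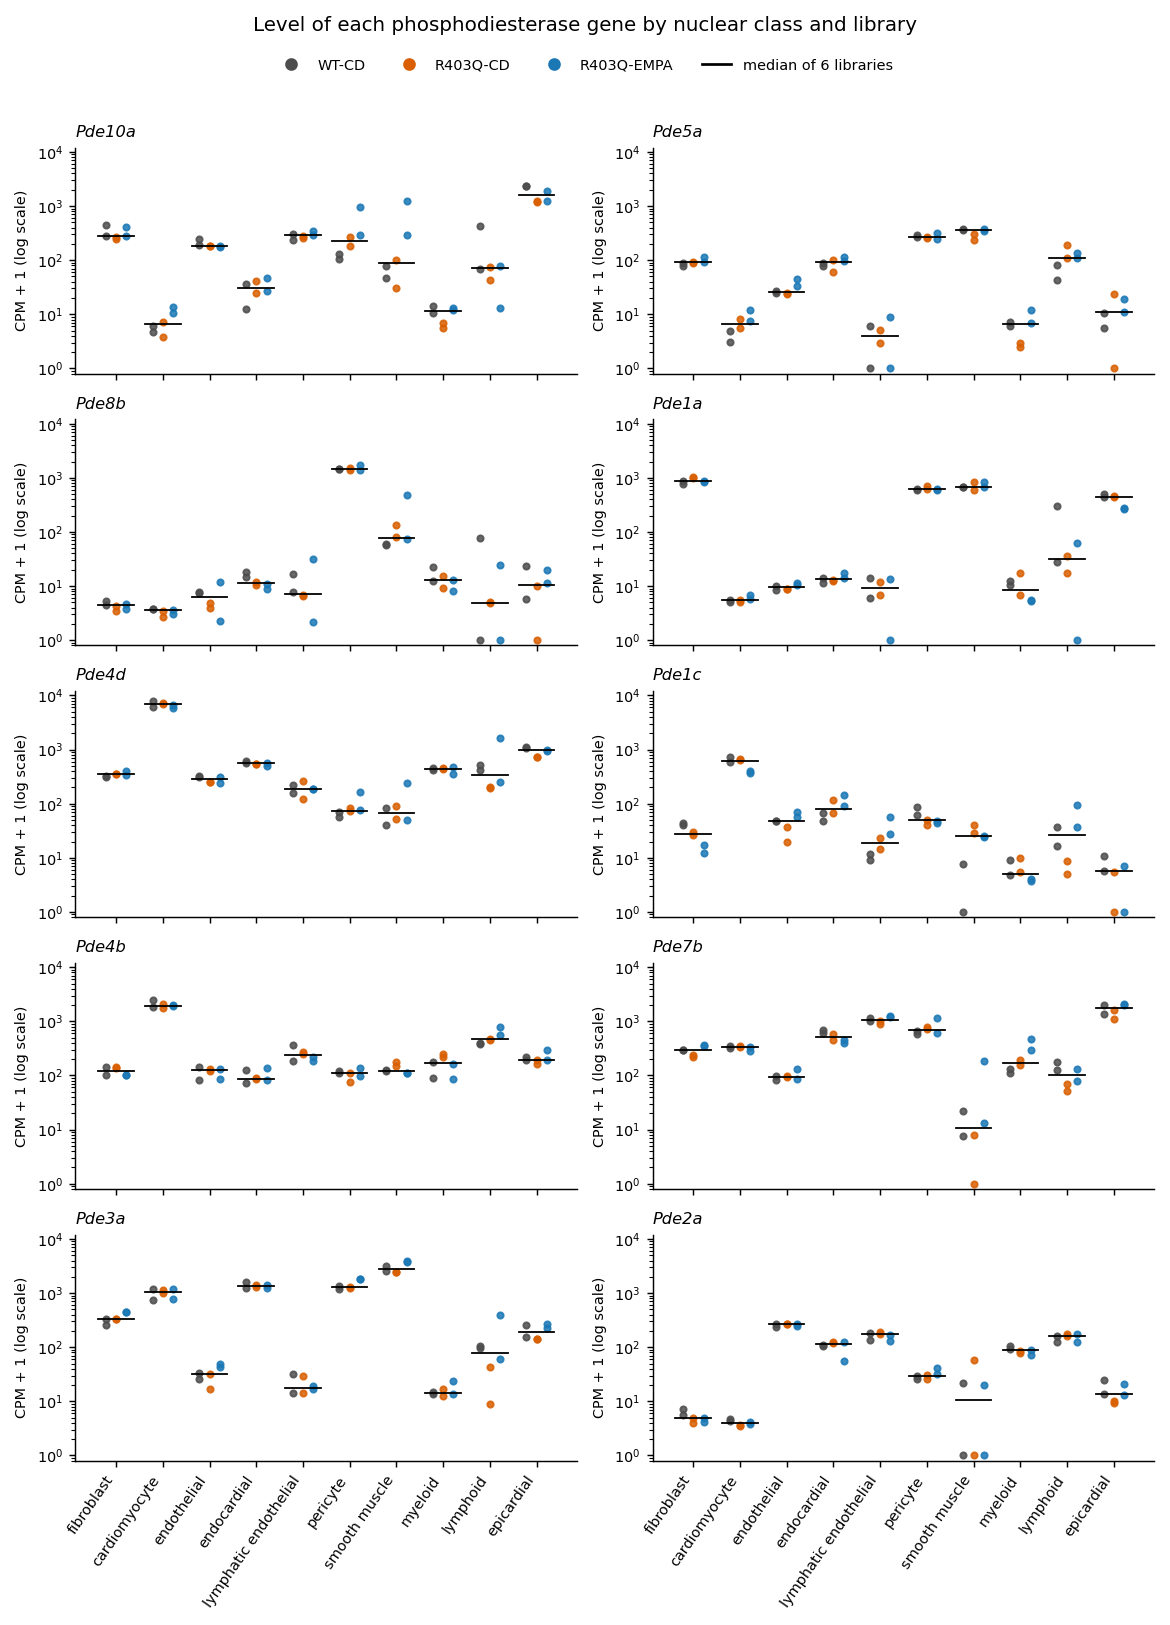
Level of each phosphodiesterase gene in 10 classes of nuclei. The vertical axis is CPM + 1 on a log scale, each point is 1 of 6 libraries coloured by group, and the black bar is the median. Pde8b stood highest in pericyte-like nuclei, Pde4d and Pde4b in cardiomyocyte-like nuclei and Pde2a in endothelial-like nuclei in all 6 libraries.

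Among the genes for cAMP-specific enzymes, Pde4d and Pde4b were highest in cardiomyocyte-like nuclei. Pde4d, whose product sits in protein complexes near calcium-handling channels, had 6054 and 7933 CPM in WT-CD, 7240.5 and 6969.6 CPM in R403Q-CD, and 5778 and 6759.7 CPM in R403Q-EMPA there. Both R403Q-EMPA libraries were below both R403Q-CD libraries, and WT-CD overlapped with each. By median, epicardial-like nuclei came next at 715 to 1110.2 CPM with a median of 975, followed by endocardial-like nuclei with a median of 557 CPM, and neither range overlapped its neighbour. Lymphoid-like nuclei, lower by median, ran from 195 to 1612 CPM and so spanned both ranges. Pericyte-like and smooth muscle-like nuclei were lowest, with medians of 73.0 and 66.9 CPM and overlapping ranges. Free RNA from broken cells can give such low counts, so each level was set beside the summed cardiomyocyte markers in the same nuclei. Pde4d in pericyte-like nuclei was 1.14% of its cardiomyocyte level while the cardiomyocyte markers were 4.29% of theirs, and in smooth muscle-like nuclei the values were 1.01% and 6.97%. In epicardial-like nuclei Pde4d was 14.4% against 3.08% for the markers, and it exceeded the markers in 6 of 6 libraries. The same held in 6 of 6 libraries for endocardial-like and 6 of 6 for myeloid-like nuclei. Endothelial-like, lymphatic endothelial-like and lymphoid-like nuclei had Pde4d medians of 283, 187 and 332 CPM. Cardiomyocyte markers there were 1792 to 3249, 1770 to 2868 and 2836 to 18131 CPM, against 53844 to 67897 CPM in cardiomyocyte-like nuclei. How much of these 3 levels is free RNA was not tested.

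Pde4b, a gene that is also prominent in immune cells, had 1865 and 2434 CPM in WT-CD, 1754 and 2092 CPM in R403Q-CD, and 1985 and 1910.2 CPM in R403Q-EMPA in cardiomyocyte-like nuclei, again with overlapping groups. Lymphoid-like nuclei were second at 383 to 779 CPM with a median of 462, and their range overlapped with neither neighbour. There Pde4b was 24.2% of the cardiomyocyte level against 7.95% for the markers, and in lymphatic endothelial-like nuclei the values were 11.9% and 3.88%, with Pde4b above the markers in 6 of 6 libraries in both classes. The cardiomyocyte class held 91.1% of all Pde4d UMIs and 88.5% of all Pde4b UMIs. Between cardiomyocyte clusters, medians over libraries of Pde4d ran from 5069 CPM in cluster 25 (Ryr3, Nppa) to 7461 CPM in cluster 17.

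Pde8b had the greatest share of its UMIs in a single class among the 10 genes. It encodes a cAMP-specific enzyme with high affinity for its substrate, and pericyte-like nuclei had 1449 and 1461 CPM in WT-CD, 1414 and 1543 CPM in R403Q-CD, and 1720.2 and 1366 CPM in R403Q-EMPA. The smooth muscle-like class came next with a median of 76.5 CPM, 19.0 times lower, and the other 8 classes had medians of 2.54 to 11.8 CPM. Of all Pde8b UMIs, 94.8% lay in pericyte-like nuclei. After every nucleus was thinned to 500 UMIs, a median of 45.4% of pericyte-like nuclei held a Pde8b UMI, against 0.144% of fibroblast-like and 0.0838% of cardiomyocyte-like nuclei. Without thinning the pericyte share was 85.3%.

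Pde7b, a further cAMP-specific gene, was spread over many classes. Epicardial-like nuclei led with 1093 to 2087 CPM with a median of 1797, and their range overlapped that of lymphatic endothelial-like nuclei (885 to 1258 CPM). Pericyte-like nuclei followed at a median of 689, endocardial-like at 519.7, cardiomyocyte-like at 331 and fibroblast-like at 294 CPM. Smooth muscle-like nuclei were lowest at 9.57 CPM, although they share many contractile and vessel-wall genes with pericytes. Their first R403Q-EMPA library, at 185 CPM, was the exception, against 0 to 20.9 CPM in the other 5.

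Pde5a, the cGMP-specific member, was highest in the vessel wall. Smooth muscle-like nuclei had 377 and 366 CPM in WT-CD, 301 and 239 CPM in R403Q-CD, and 374 and 339 CPM in R403Q-EMPA, and pericyte-like nuclei had 246 to 312 CPM, so the 2 classes overlapped. Pericyte-like nuclei did not overlap with the next class, lymphoid-like nuclei, at a median of 109 CPM. Cardiomyocyte-like nuclei were near the bottom at 2.08 to 10.9 CPM, with 413 Pde5a UMIs in all 6 libraries together.

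Of the genes for dual-specificity enzymes, Pde3a had the widest reach across muscle and endocardium. Its product is the target of milrinone, and smooth muscle-like nuclei had 2539 and 3121 CPM in WT-CD, 2415 and 2424 CPM in R403Q-CD, and 3715 and 3903 CPM in R403Q-EMPA. Endocardial-like, pericyte-like and cardiomyocyte-like nuclei followed with medians of 1356, 1318 and 1061 CPM, each overlapping with its neighbour in that order but endocardial-like not with cardiomyocyte-like nuclei. Fibroblast-like nuclei were lower at 332 CPM, and endothelial-like, lymphatic endothelial-like and myeloid-like nuclei had medians of only 31.5, 17.0 and 13.3 CPM. Endocardial-like nuclei, an endothelial lining, stood with the muscle classes for this gene.

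The 2 calmodulin-activated genes were highest in different classes. Pde1a was highest in fibroblast-like nuclei at 776 to 1032 CPM, overlapping with smooth muscle-like nuclei (601 to 842 CPM), and pericyte-like and epicardial-like nuclei had medians of 626 and 441 CPM. All other classes had medians of 4.56 to 30.3 CPM. Pde1a was at 71.8% of its fibroblast level in pericyte-like nuclei, where the fibroblast markers were at 27.6% of theirs, and at 82.5% against 6.22% in smooth muscle-like nuclei. Pde1c was highest in cardiomyocyte-like nuclei, where it had 586 and 721 CPM in WT-CD, 682 and 649 CPM in R403Q-CD, and 363 and 405 CPM in R403Q-EMPA. Both R403Q-EMPA libraries were below the other 4. The next class, endocardial-like nuclei, had a median of 78.7 CPM, which was 14.0% of the cardiomyocyte level against 3.46% for the cardiomyocyte markers, and pericyte-like nuclei had 10.0% against 4.29%. Endothelial-like and fibroblast-like nuclei had medians of 47.7 and 26.9 CPM, and the markers there are given below with their changes.

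Pde2a was an endothelial gene in these nuclei. Endothelial-like nuclei had 238 and 262 CPM in WT-CD, 266 and 268 CPM in R403Q-CD, and 242 and 271 CPM in R403Q-EMPA, a narrow spread in which R403Q-EMPA overlapped with both other groups and WT-CD lay just below R403Q-CD. Lymphatic endothelial-like and lymphoid-like nuclei had medians of 172 and 162 CPM and overlapped. Endocardial-like nuclei had 104 to 126 CPM in 5 libraries and 54.5 CPM in the first R403Q-EMPA library. Fibroblast-like and cardiomyocyte-like nuclei had medians of 3.99 and 3.04 CPM. Within the endothelial class, cluster 7 (Car4, Rgcc) had 303 to 385 CPM and cluster 20, led by the arterial gene Gja5, had 9.4 to 62.2 CPM.

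Pde10a, best known for its role in striatal neurons, was highest in epicardial-like nuclei, which had 2365 and 2379.7 CPM in WT-CD, 1193 and 1256 CPM in R403Q-CD, and 1906 and 1252 CPM in R403Q-EMPA. Both R403Q-CD libraries were below both WT-CD libraries, and this class held only 27 to 71 nuclei per library. Lymphatic endothelial-like, fibroblast-like, pericyte-like and endothelial-like nuclei followed with medians of 287, 276, 222 and 182 CPM. Neighbours in that order overlapped, and fibroblast-like and endothelial-like nuclei did not. Fibroblast-like nuclei, the largest class, held 52.3% of all Pde10a UMIs. Among fibroblast clusters, cluster 1 (Duox1, Has2) had 602 to 1528 CPM and cluster 6 (Grm8, Nkain2) had 87.8 to 135 CPM. Cardiomyocyte-like nuclei were lowest at 2.78 to 12.6 CPM.

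All 10 genes kept their leading class when clustering was coarser, when doublets or nuclei rich in mitochondrial RNA were kept, and when the share of nuclei with a UMI replaced CPM.

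Genes whose levels followed each phosphodiesterase most closely were found over 60 values, 10 classes in 6 libraries, among 10455 genes. The values share libraries and depth, so the Pearson r of log2(CPM + 1) is given with no p. Pde1a had the closest partners, Ddr2, a collagen receptor, at 0.95, and Meg3 and Naalad2 at 0.94 and 0.94. Pde3a went with Trabd2b (0.90), Astn2 (0.89) and the cardiac transcription factor Gata4 (0.89). Pde2a went with the endothelial transcription factor Fli1 (0.90), Abi3 (0.90) and Itga6 (0.89). Pde8b went with Lin7a (0.89), Lrfn2 (0.86) and Gm6249 (0.86). Pde4d went with Shld1 (0.87) and adenosine kinase, Adk (0.86). Pde4b went with Ptpn4 (0.89), Ogdh (0.88) and Ppip5k2 (0.87). Pde1c went with Rilpl1 (0.81), the muscarinic receptor gene Chrm2 (0.80) and Acyp2 (0.79), and Pde5a with Adgrl1 (0.84), Gpc6 (0.82) and Sytl2 (0.78). Pde10a went with Slc2a13 (0.81) and Eda (0.79). Pde7b had the loosest, Pcdhgb5, Usp53 and Wdr17 at 0.73, 0.72 and 0.71. Between the 10 genes themselves the closest pair was Pde4d and Pde4b at 0.71.

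The effect of genotype and of EMPA was tested in each class with edgeR's quasi-likelihood test on UMIs summed per library, with Benjamini-Hochberg adjustment over all genes of the class. Of the 100 pairs of a gene and a class, 88 passed the filter on low counts and were tested. A pair was called at an adjusted p under 0.05, and the log2 fold changes below come with their standard error. R403Q-CD against WT-CD and R403Q-EMPA against R403Q-CD share the R403Q-CD libraries, and both comparisons of R403Q-EMPA share its libraries, so each is given by its own values.

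**Figure D2:**
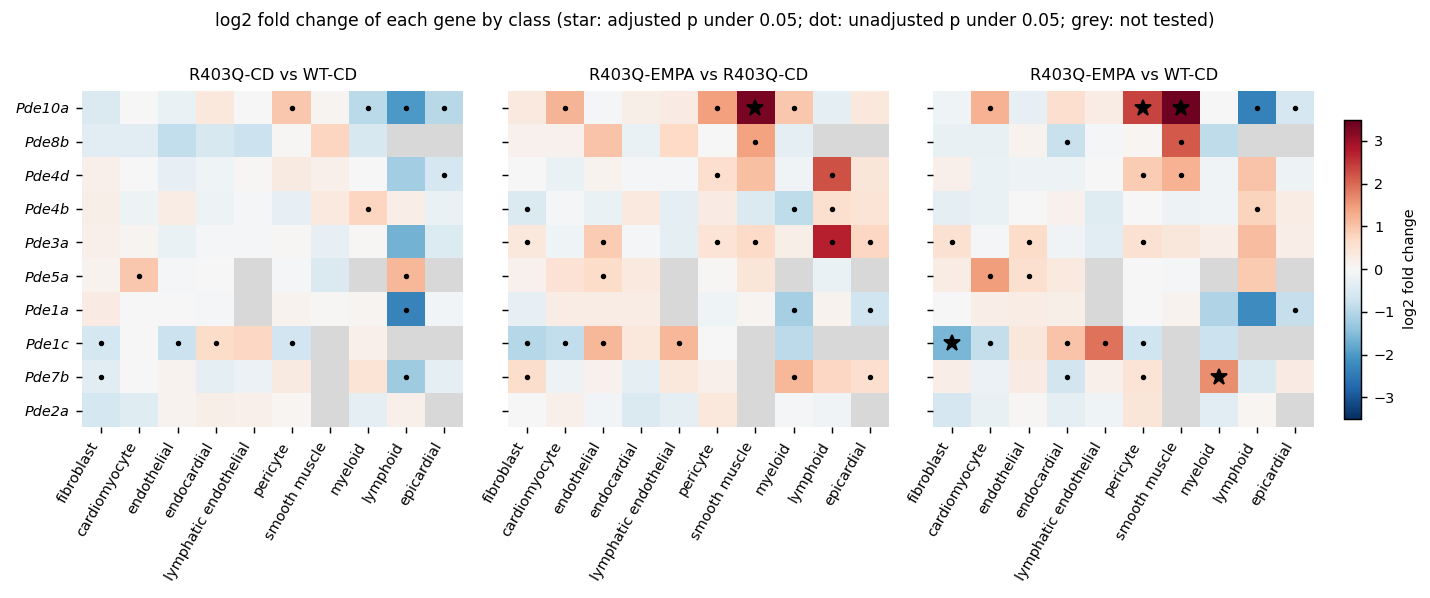
log2 fold change of each gene (rows) in each class (columns) for the 3 comparisons, red for higher and blue for lower in the first group named, on 1 colour scale for all 3. Stars mark an adjusted p under 0.05 by edgeR, dots an unadjusted p under 0.05, and grey pairs were not tested. No star is seen for R403Q-CD vs WT-CD, 1 for R403Q-EMPA vs R403Q-CD and 4 for R403Q-EMPA vs WT-CD.

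Across all 6 libraries no change of the 10 genes with genotype alone passed the threshold. In R403Q-CD against WT-CD, edgeR called 0 of 88 pairs, while 15 pairs had an unadjusted p under 0.05, 5 higher and 10 lower, and DESeq2's Wald test called 0. Of all pairs of a gene and a class 0.017% were called in this comparison. Among the 10 genes 17.0% of pairs had an unadjusted p under 0.05, against 4.35% of all pairs. The lowest adjusted p belonged to Pde10a in epicardial-like nuclei, at -0.97 ± 0.22 with an adjusted p of 0.0989 by edgeR, and its levels did not overlap between the 2 groups. At nearly the same fold this pair passed in 4 of 13 alternatives, with an edgeR adjusted p of 0.0326 with only those groups, 0.00425 with no filter on low counts, and 0.00396 and 0.00936 without the first or the second R403Q-EMPA library, while DESeq2's Wald test gave an adjusted p of 0.333. Other pairs whose unadjusted p was under 0.05 had edgeR adjusted p-values of 0.48 or more. They included Pde1c, which was -0.61 ± 0.18 in fibroblast-like, -0.75 ± 0.26 in endothelial-like and -0.67 ± 0.19 in pericyte-like nuclei but 0.63 ± 0.28 in endocardial-like nuclei. Lymphoid-like values rested on few nuclei, since 1 nucleus held 67 of the 84 Pde10a UMIs and a single nucleus 45 of the 58 Pde1a UMIs of the second WT-CD library.

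With EMPA, Pde10a rose in smooth muscle-like nuclei, Pde10a in pericyte-like and Pde7b in myeloid-like nuclei were higher than in WT-CD, and Pde1c in fibroblast-like nuclei was lower than in WT-CD. In R403Q-EMPA against R403Q-CD, edgeR called 1 of 88 pairs, and 26 had an unadjusted p under 0.05, 20 higher and 6 lower. Over all pairs of a gene and a class 0.347% were called. In R403Q-EMPA against WT-CD, 4 of 88 were called, 3 higher and 1 lower, and 24 had an unadjusted p under 0.05, 16 higher and 8 lower. There 1.42% of all pairs were called. The share of pairs with an unadjusted p under 0.05 was 29.5% for these genes and 9.77% for all in the former comparison, and 27.3% and 12.7% in the latter. These genes were chosen with earlier results of the same data known, so the shares are a description. The pairs that did not pass are given by their values.

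Pde10a was higher in pericyte-like nuclei of R403Q-EMPA than of WT-CD. Its levels were 105 and 127 CPM in WT-CD, 179 and 264 CPM in R403Q-CD, and 941 and 289 CPM in R403Q-EMPA. The 3 groups did not overlap, and the first R403Q-EMPA library was well above the second. Against WT-CD the log2 fold change was 2.36 ± 0.35 with an edgeR adjusted p of 0.00175, in a class where 1.69% of genes were called. Without the first R403Q-EMPA library it was 1.31 with an adjusted p of 0.00768, and it passed in all 6 fits that left out 1 library, while DESeq2's Wald test gave an adjusted p of 0.0509. Against R403Q-CD it was 1.42 ± 0.34 with an edgeR adjusted p of 0.0884, in a class where 0.613% of genes were called. That value passed in 5 of 13 alternatives, among them only the groups compared (edgeR adjusted p = 0.0278) and each fit without 1 WT-CD library (0.00782 and 0.0112) or without the second R403Q-EMPA library (0.000173), and without the first R403Q-EMPA library it was 0.37 (edgeR adjusted p = 0.874). The share of nuclei with a UMI had the same order of groups. At 500 UMIs per nucleus, the WT-CD libraries had 3.97 and 4.69% of nuclei with a Pde10a UMI, the R403Q-CD libraries 7.39 and 7.72% and the R403Q-EMPA libraries 21.2 and 9.72%, and no nucleus of the first R403Q-EMPA library held over 5.87% of the class's UMIs. Summed endothelial markers in pericyte-like nuclei were 513 CPM in that library and 241 to 384 CPM in the others, and cardiomyocyte markers were highest in R403Q-EMPA, within 1615 to 3486 CPM over all 6. Their part in the result was not tested. The summed markers of fibroblasts, a class with a similar Pde10a level, were 4482 to 5158 CPM in pericyte-like nuclei and lowest in that library. Those of epicardial nuclei, the highest class, were 1.75 to 12.0 CPM.

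The same gene stood out in smooth muscle-like nuclei, a small class of 30 to 51 nuclei per library. Levels of Pde10a were 76.7 and 45.8 CPM in WT-CD, 30.1 and 98.3 CPM in R403Q-CD, and 1221 and 291 CPM in R403Q-EMPA, from 11, 7, 3, 14, 258 and 24 UMIs in that order. Both R403Q-EMPA libraries were above the other 4. Against R403Q-CD the log2 fold change was 3.31 ± 0.53 (edgeR adjusted p = 0.0126), and against WT-CD it was 3.41 ± 0.52 (edgeR adjusted p = 0.0135). In each comparison 0.0563% of the genes of this class were called, which was 2 of 3552. Without the first R403Q-EMPA library the changes were 1.90 (edgeR adjusted p = 0.0899) and 1.98 (edgeR adjusted p = 0.0377), so the call against R403Q-CD was lost. A fit of only the 2 groups also lost it, at an adjusted p of 0.0906.

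In 1 of the 2 R403Q-EMPA libraries most of these UMIs lay in nuclei that also carried the pericyte gene Pde8b. In the first R403Q-EMPA library 14 smooth muscle-like nuclei with a Pde8b UMI held 225 of the 258 Pde10a UMIs, and 1 nucleus alone held 71. In the second, 21 of the 24 lay in 28 nuclei with no Pde8b UMI and 3 in nuclei that had it. Summed lymphatic endothelial markers in smooth muscle-like nuclei were 291 CPM in that second library and 30.1 to 62.8 CPM in the others. The summed pericyte markers were 3961 CPM in the first R403Q-EMPA library and 2849 to 3598 CPM in the others, while the smooth muscle markers were 7762 and 7806 CPM in R403Q-EMPA against 8299 to 12943 CPM in the other groups. In nuclei with no Pde8b UMI, a selection made after seeing the data, Pde10a was 267 and 284 CPM in R403Q-EMPA against 12.3 to 64.2 CPM in the other 4 libraries. There the change was 2.48 against R403Q-CD (edgeR adjusted p = 0.031) and 1.95 against WT-CD (edgeR adjusted p = 0.068), so the call against WT-CD was lost. A nucleus with no Pde8b UMI can still hold pericyte RNA, since 85.3% and not all of pericyte-like nuclei had such a UMI. The part of pericyte or lymphatic endothelial RNA in the result was not tested.

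**Figure D3:**
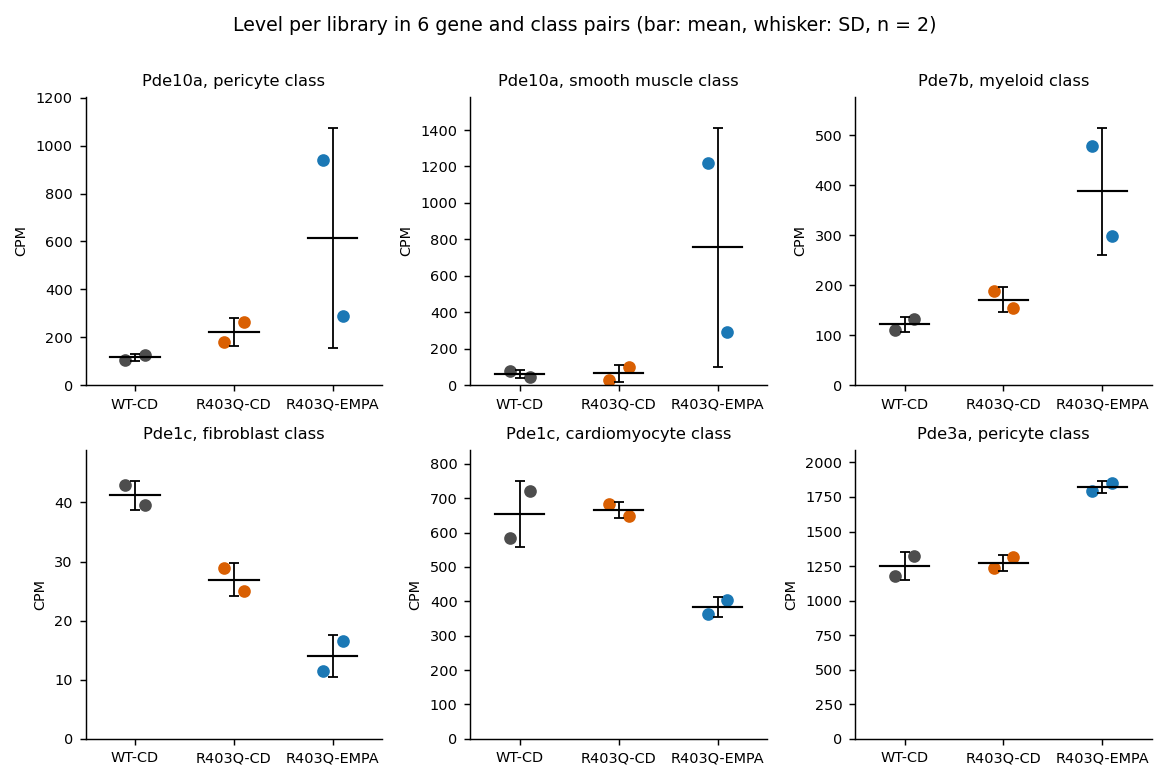
Level in CPM of 4 genes in 6 pairs of a gene and a class. Points are single libraries, the black bar is the mean and the whisker the SD (n = 2). The R403Q-EMPA libraries lie above the rest for Pde10a in pericyte-like and smooth muscle-like nuclei, Pde7b in myeloid-like and Pde3a in pericyte-like nuclei, and below the rest for Pde1c in fibroblast-like and cardiomyocyte-like nuclei, where the cardiomyocyte-like and Pde3a pairs did not pass with all 6 libraries.

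In cardiomyocyte-like nuclei Pde10a was at 3.65 and 5.08 CPM in WT-CD, 2.78 and 6.16 CPM in R403Q-CD, and 12.6 and 9.53 CPM in R403Q-EMPA, with R403Q-EMPA above all others, and the change against WT-CD was 1.23 ± 0.36 (edgeR adjusted p = 0.0922). With predicted doublets kept it was 0.37 (edgeR adjusted p = 0.565). Summed endothelial markers in these nuclei were 179.9 and 128 CPM in R403Q-EMPA against 88.4 to 126 CPM in the other 4 libraries, and adipocyte markers 10.7 and 4.24 CPM against 0.298 to 1.96 CPM. Their part in this value, and in the differences between classes built on it, was not tested. Within cardiomyocyte cluster 12 (Nppa, Xirp1), Pde10a was 40.6 and 51.5 CPM in R403Q-EMPA, from 56 and 56 UMIs, and 2.55 to 9.19 CPM in the other 4 libraries, from 1 to 4 UMIs each. That cluster was singled out after its values were seen and was not tested. Its nuclei were shallow, with a median UMI count 0.885 times that of their libraries against 2.87 to 3.07 in the other 3 cardiomyocyte clusters. Against R403Q-CD the change was 0.38 ± 0.22 in epicardial-like nuclei (edgeR adjusted p = 0.735), 0.35 ± 0.27 in fibroblast-like nuclei (adjusted p = 0.619) and -0.06 ± 0.16 in endothelial-like nuclei (adjusted p = 0.93).

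Pde1c was lower in fibroblast-like nuclei of R403Q-EMPA than of WT-CD. Its levels were 42.9 and 39.5 CPM in WT-CD, 28.9 and 24.9 CPM in R403Q-CD, and 11.5 and 16.5 CPM in R403Q-EMPA, from 83 to 479 UMIs, and the 3 groups did not overlap. The log2 fold change against WT-CD was -1.60 ± 0.19 with an edgeR adjusted p of 0.0153, where 1.23% of the genes of the class were called. Without the first R403Q-EMPA library it was -1.33 with an adjusted p of 0.0692, and the call was lost. Against R403Q-CD it was -0.99 ± 0.20 with an edgeR adjusted p of 0.0794, and it passed in 3 of 13 alternatives, DESeq2's Wald test included (adjusted p = 0.0165). Summed Schwann markers in fibroblast-like nuclei were 113 and 187 CPM in R403Q-EMPA against 236 to 272 CPM in the other 4 libraries, and Pde1c in Schwann-like nuclei was 146 CPM in the only library with at least 20 of them, from 10 UMIs. In fibroblast-like nuclei cardiomyocyte markers were 1603 and 1268 CPM in WT-CD, 2060 and 2172 CPM in R403Q-CD, and 2196 and 2200 CPM in R403Q-EMPA. In cardiomyocyte-like nuclei, the highest class for Pde1c, they were 53844 to 67897 CPM. How much of the low R403Q-EMPA level of Pde1c is free cardiomyocyte RNA was not tested, nor was the part of either set of markers in the result. The makeup of the class differed between groups as well. Cluster 5 (Kcnip1, Necab1), where Pde1c was highest, was 12.9 and 28.4% of fibroblast-like nuclei in R403Q-EMPA and 35.8 to 38.7% in the other groups. Within cluster 5 Pde1c was 87.8 and 67.6 CPM in WT-CD, 56.8 and 49.3 CPM in R403Q-CD, and 25.4 and 34.9 CPM in R403Q-EMPA, and within cluster 6 it was 34.3 and 49.6 CPM in WT-CD, 24.0 and 13.7 CPM in R403Q-CD, and 7.89 and 14.7 CPM in R403Q-EMPA. The order of R403Q-EMPA below WT-CD held inside both clusters, with no test there.

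In cardiomyocyte-like nuclei, where Pde1c was highest, the levels given above were lower in both R403Q-EMPA libraries than in the other 4. The change was -0.85 ± 0.21 against R403Q-CD (edgeR adjusted p = 0.134) and -0.85 ± 0.21 against WT-CD (edgeR adjusted p = 0.0529), in a class where 3.99% of genes were called against WT-CD. The latter passed in 4 of 13 alternatives, with adjusted p-values of 0.00132 by DESeq2's Wald test and, by edgeR, 0.00109 with no filter on low counts, 0.0355 with no mitochondrial filter and 0.0107 without the first WT-CD library. Cluster 25, with the lowest Pde1c, was 19.6 and 9.43% of the class in R403Q-EMPA and 0.281 to 5.41% elsewhere. Within cluster 13 (Myot, Pak5) Pde1c was 481 and 540.4 CPM in WT-CD, 581 and 597 CPM in R403Q-CD, and 426 and 377 CPM in R403Q-EMPA, and within cluster 17 it was 612 and 785 CPM in WT-CD, 797 and 790.3 CPM in R403Q-CD, and 652 and 589.9 CPM in R403Q-EMPA. R403Q-EMPA was below the other groups in cluster 13 and overlapped with WT-CD in cluster 17.

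Levels of Pde1c in the 3 endothelial classes were highest in R403Q-EMPA or overlapped with R403Q-CD, and no change there was called. Endothelial-like nuclei had 47.6 and 47.9 CPM in WT-CD, 18.8 and 36.0 CPM in R403Q-CD, and 70.0 and 55.5 CPM in R403Q-EMPA, so R403Q-EMPA was highest and R403Q-CD lowest. The change was 1.16 ± 0.26 against R403Q-CD (edgeR adjusted p = 0.146) and 0.40 ± 0.26 against WT-CD (edgeR adjusted p = 0.582), the latter in a class where 0.822% of genes were called. In endothelial-like nuclei cardiomyocyte markers were 2422 and 1792 CPM in WT-CD, 2952 and 2917 CPM in R403Q-CD, and 3249 and 2957 CPM in R403Q-EMPA. The part of free cardiomyocyte RNA in these Pde1c values was not tested. Within endothelial cluster 9 (Col13a1, Kirrel3) Pde1c was 107 and 84.9 CPM in WT-CD, 55.6 and 77.0 CPM in R403Q-CD, and 203 and 150.3 CPM in R403Q-EMPA. Cluster 10 (Nr5a2, Btnl9) was 26.9% of endothelial-like nuclei in the first R403Q-EMPA library and 5 to 11.8% in the others. Endocardial-like nuclei had 66.0 and 47.4 CPM in WT-CD, 115 and 67.6 CPM in R403Q-CD, and 143 and 89.9 CPM in R403Q-EMPA, a change against WT-CD of 1.01 ± 0.27 (edgeR adjusted p = 0.0815) and of 0.64 (edgeR adjusted p = 0.551) without the first R403Q-EMPA library. It passed in 4 of 13 alternatives, and 2.35% of the genes of the class were called. Lymphatic endothelial-like nuclei had 10.8 and 8.3 CPM in WT-CD, 13.5 and 21.8 CPM in R403Q-CD, and 55.9 and 27.0 CPM in R403Q-EMPA, a change of 1.91 ± 0.42 (edgeR adjusted p = 0.115). Pericyte-like nuclei of R403Q-EMPA were at 43.5 and 46.9 CPM, within the range of R403Q-CD.

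The difference between classes was itself tested for cardiomyocyte-like, fibroblast-like and endothelial-like nuclei, with each library as a block in one edgeR fit of 2 classes, 30 tests of a gene and a pair of classes per comparison. The part of free cardiomyocyte RNA in the endothelial-like and fibroblast-like values of Pde1c was not tested. With all 6 libraries the response of Pde1c to EMPA differed between classes. Its log2 change against R403Q-CD was lower in cardiomyocyte-like than in endothelial-like nuclei by a difference of -2.07 ± 0.27 (edgeR adjusted p = 0.00400), and in fibroblast-like than in endothelial-like nuclei by -2.21 ± 0.34 (edgeR adjusted p = 0.0214). Against WT-CD the differences were -1.25 ± 0.27 (edgeR adjusted p = 0.0245) and -2.04 ± 0.33 (edgeR adjusted p = 0.0196). For Pde10a the change was greater in cardiomyocyte-like than in endothelial-like nuclei, by 1.26 ± 0.26 (edgeR adjusted p = 0.0362) against R403Q-CD and 1.52 ± 0.27 (edgeR adjusted p = 0.00741) against WT-CD. The former passed in 6 of 9 alternatives, and it was also lost in an alternative that kept all libraries. The log2 change of Pde7b against R403Q-CD was lower in cardiomyocyte-like than in fibroblast-like nuclei, with a difference of -0.85 ± 0.15 (edgeR adjusted p = 0.0387). Calls numbered 4 of 30 against R403Q-CD and 3 of 30 against WT-CD, where 0.762% and 1.93% of all such tests were called. R403Q-CD against WT-CD gave 0 of 30, with 9 at an unadjusted p under 0.05, beside 0.0666% of all. Each of the 7 calls was lost without at least 1 library.

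Without the first R403Q-EMPA library 4 of the 7 calls were lost. Against R403Q-CD the difference of Pde10a was then 1.07 (edgeR adjusted p = 0.119) and that of Pde7b -0.69 (edgeR adjusted p = 0.17). Against WT-CD the differences of Pde1c from endothelial-like nuclei were -0.97 (edgeR adjusted p = 0.101) for cardiomyocyte-like and -1.51 (edgeR adjusted p = 0.0643) for fibroblast-like nuclei. The other 3 remained past the threshold, Pde1c against R403Q-CD at -1.78 (edgeR adjusted p = 0.00293) and -1.69 (edgeR adjusted p = 0.0425), and Pde10a against WT-CD at 1.34 (edgeR adjusted p = 0.0217). All 4 calls against R403Q-CD were lost without the first R403Q-CD library, where the differences of Pde1c were -1.58 (edgeR adjusted p = 0.072) and -1.68 (edgeR adjusted p = 0.218), that of Pde10a 0.86 (edgeR adjusted p = 0.456) and that of Pde7b -0.92 (edgeR adjusted p = 0.298). The Pde7b call was lost too without the second R403Q-CD library, at -0.78 (edgeR adjusted p = 0.309), and without the second WT-CD library, at -0.78 (edgeR adjusted p = 0.0521). The 3 calls against WT-CD were lost without either WT-CD library.

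**Figure D4:**
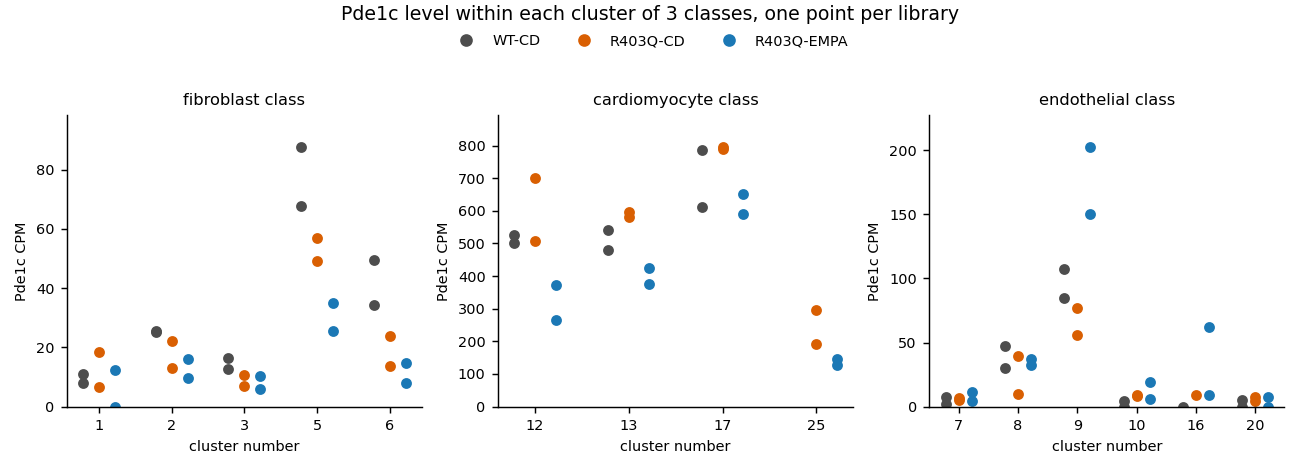
Pde1c level in CPM within each cluster of 3 classes, with 1 point per library that held at least 20 nuclei of the cluster, coloured by group. In fibroblast cluster 5 and cardiomyocyte clusters 13 and 12 both R403Q-EMPA points lie below the WT-CD points, and in endothelial cluster 9 both lie above.

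Pde7b was higher in myeloid-like nuclei of R403Q-EMPA than of WT-CD. Its levels were 111 and 132 CPM in WT-CD, 189 and 154 CPM in R403Q-CD, and 478 and 298 CPM in R403Q-EMPA, and the 3 groups did not overlap. Against WT-CD the log2 fold change was 1.63 ± 0.22 with an edgeR adjusted p of 0.00832, where 0.527% of the genes of the class were called. Without the first R403Q-EMPA library it was 1.26 with an adjusted p of 0.0871, and the call was lost. Against R403Q-CD it was 1.16 ± 0.21 with an edgeR adjusted p of 0.0837, and it passed in 5 of 13 alternatives, DESeq2's Wald test included (adjusted p = 0.00513). At 500 UMIs per nucleus the share of nuclei with a Pde7b UMI was 4.34 and 4.61% for WT-CD, 7.66 and 5.4% for R403Q-CD, and 17.0 and 10.9% for R403Q-EMPA. Cluster 14 (F13a1, Cd163), which made up most of the class in every library, had 109.8 to 188 CPM in the WT-CD and R403Q-CD libraries and 492 and 297 CPM in R403Q-EMPA. The summed lymphoid markers in these nuclei were 488 CPM in the first R403Q-EMPA library and 1078 to 1510.5 CPM in the others, and Pde7b in lymphoid-like nuclei was only 49.6 to 176 CPM.

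Levels of Pde7b in fibroblast-like nuclei were 288 and 299 CPM in WT-CD, 234 and 219 CPM in R403Q-CD, and 369 and 348 CPM in R403Q-EMPA, with both R403Q-EMPA libraries highest, and the change against R403Q-CD was 0.62 ± 0.13 (edgeR adjusted p = 0.099). Endocardial-like nuclei had 688 and 599 CPM in WT-CD, 594 and 446 CPM in R403Q-CD, and 391 and 445 CPM in R403Q-EMPA, with R403Q-EMPA below WT-CD, and the change against WT-CD was -0.65 ± 0.18 (edgeR adjusted p = 0.0898). The former passed in 5 of 13 alternatives, among them DESeq2's Wald test (adjusted p = 0.0113) and edgeR with only the groups compared (adjusted p = 0.0285), and the latter in 1 of 13 alternatives, with no filter on low counts. The summed endocardial markers of these nuclei were lower in R403Q-EMPA as well, at 9592 and 11930.2 CPM against 14459 to 16843 CPM in the other 4 libraries, beside the values of Pde7b and Pde1c and the called change of Pde9a in this class, and their part in these was not tested.

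Pde3a was higher in both R403Q-EMPA libraries than in the other 4 in 3 stromal classes, with small spread, but no pair passed. Pericyte-like nuclei had 1182 and 1324 CPM in WT-CD, 1234 and 1312 CPM in R403Q-CD, and 1792 and 1852 CPM in R403Q-EMPA, a change of 0.48 ± 0.16 against R403Q-CD (edgeR adjusted p = 0.274). In smooth muscle-like nuclei, with the levels given above, the change was 0.68 ± 0.24 (edgeR adjusted p = 0.834). Fibroblast-like nuclei had 262 and 327 CPM in WT-CD, 334 and 329.7 CPM in R403Q-CD, and 443 and 442 CPM in R403Q-EMPA, a change of 0.37 ± 0.16 (edgeR adjusted p = 0.368). Endothelial-like nuclei also had a higher mean in R403Q-EMPA, at 45.1 CPM against 23.6 CPM in R403Q-CD and 28.5 CPM in WT-CD. The change against R403Q-CD there was 0.89 ± 0.28 (edgeR adjusted p = 0.306). Cardiomyocyte-like nuclei had overlapping levels of 730.0 to 1205 CPM and a change of -0.16 ± 0.32 (edgeR adjusted p = 0.878). A large value was that of lymphoid-like nuclei, 2.71 ± 0.77 (edgeR adjusted p = 0.347). There 1 nucleus held 25 of the 50 UMIs of the second R403Q-EMPA library, whose level without it was 217 CPM. The same library had 1 lymphoid-like nucleus with 97 of its 209 Pde4d UMIs, beside a Pde4d change of 2.22 ± 0.66. Summed cardiomyocyte markers in lymphoid-like nuclei were 18131 CPM in that library and 2836 to 5694 CPM in the other 5, and their part in both values was not tested.

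Pde5a was very low in cardiomyocyte-like nuclei of every group, at 3.89 and 2.08 CPM in WT-CD, 4.57 and 7.19 CPM in R403Q-CD, and 10.9 and 6.67 CPM in R403Q-EMPA. R403Q-EMPA overlapped with R403Q-CD and lay above WT-CD, a change of 1.45 ± 0.35 (edgeR adjusted p = 0.0515) that passed in 7 of 13 alternatives, DESeq2's Wald test included (adjusted p = 0.0241). Cluster 25, which was larger in R403Q-EMPA, had 19.2 to 37.4 CPM, against 1.16 to 4.06 CPM in cluster 17. In pericyte-like nuclei, where Pde5a is high, the changes were 0.05 ± 0.16 against R403Q-CD and -0.02 ± 0.15 against WT-CD, and in smooth muscle-like nuclei they were 0.43 ± 0.30 and -0.07 ± 0.29, none past the threshold.

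The genes with the highest cardiomyocyte levels moved little there. In R403Q-EMPA against R403Q-CD, Pde4d was -0.24 ± 0.28 (edgeR adjusted p = 0.775) and Pde4b -0.04 ± 0.24 (adjusted p = 0.966). Pde4d in pericyte-like nuclei was 161 CPM in the first R403Q-EMPA library and 56.1 to 82.6 CPM in the others, a change of 0.88 ± 0.24 against WT-CD (edgeR adjusted p = 0.0945) and of 0.26 (edgeR adjusted p = 0.815) without that library. It passed in 3 of 13 alternatives. Pde8b in pericyte-like nuclei, its main site, was 0.03 ± 0.16 against R403Q-CD (edgeR adjusted p = 0.986). Smooth muscle-like nuclei had 55.8 and 58.9 CPM in WT-CD, 80.2 and 133 CPM in R403Q-CD, and 483 and 72.7 CPM in R403Q-EMPA of Pde8b, a change of 2.15 ± 0.53 against WT-CD (edgeR adjusted p = 0.151) with only the first R403Q-EMPA library far above the others. Pde1a in fibroblast-like nuclei was -0.28 ± 0.16 (edgeR adjusted p = 0.499), and in epicardial-like nuclei both R403Q-EMPA libraries, at 264 and 275 CPM, were below the other 4 at 440.3 to 495 CPM (edgeR adjusted p = 0.518 against R403Q-CD). Pde2a in endothelial-like nuclei was -0.09 ± 0.14 (edgeR adjusted p = 0.874), and no pair of Pde2a reached an unadjusted p under 0.05 in any comparison.

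Counted over all nuclei of a library, with classes mixed, Pde8b differed from its level within the class. Pde8b was 136 and 128 CPM in WT-CD, 103 and 113 CPM in R403Q-CD, and 62.9 and 71.7 CPM in R403Q-EMPA, where pericyte-like nuclei were 4.86 and 8.83% of nuclei against 10.4 to 13.5% in the other groups. Within pericyte-like nuclei its groups overlapped.

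The other genes of cyclic nucleotide signalling were a list of 75, of which 71 were tested in at least 1 class, as 474 pairs of a gene and a class. They comprise the remaining phosphodiesterases, adenylyl and guanylyl cyclases, cAMP and cGMP kinases, other sensors, anchoring proteins, exporters and transcription factors, and G proteins. edgeR called 0 of 474 in R403Q-CD against WT-CD, with 32 at an unadjusted p under 0.05 and 2 by DESeq2. It called 1 (0.211%) in R403Q-EMPA against R403Q-CD, beside 0.347% of all pairs, with 65 at an unadjusted p under 0.05. In R403Q-EMPA against WT-CD it called 9 (1.9%), 6 higher and 3 lower, beside 1.42% of all pairs, with 88 at an unadjusted p under 0.05. Without the first R403Q-EMPA library 2 were called against R403Q-CD and 2 against WT-CD. The median log2 change of the list was 0.03 and 0.02 in the EMPA comparisons, and the class medians over all genes lay between -0.01 and 0.01.

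Among the remaining phosphodiesterases 3 of 67 pairs were called in R403Q-EMPA against WT-CD, all higher, where 1.42% of all pairs were called, and 0 of 67 in each of the other comparisons. All 3 were lost without the first R403Q-EMPA library. Pde3b, the adipose and vascular relative of Pde3a, had 11.3 and 11.7 CPM in WT-CD, 16.2 and 15.3 CPM in R403Q-CD, and 36.8 and 32.4 CPM in R403Q-EMPA in pericyte-like nuclei, a change of 1.5 ± 0.25 (edgeR adjusted p = 0.00419), and without that library 1.44 (edgeR adjusted p = 0.0712). Pde8a, the relative of Pde8b, had 33.8 and 44.4 CPM in WT-CD, 65.7 and 84.2 CPM in R403Q-CD, and 133 and 98.9 CPM in R403Q-EMPA in cardiomyocyte-like nuclei, a change of 1.48 ± 0.22 (edgeR adjusted p = 0.00934), and without that library 1.29 (edgeR adjusted p = 0.0547). The groups did not overlap for Pde8a. In pericyte-like nuclei, where Pde3b was called, adipocyte markers were 18.8 CPM in the second R403Q-EMPA library and 0 to 0.783 CPM in the others. Endothelial markers there were 513 and 384 CPM in R403Q-EMPA against 241 to 361 CPM in the other groups. Cardiomyocyte markers were 3486 and 3102 CPM against 1615 to 2933 CPM. Their part in the Pde3b change was not tested. Pde9a, a cGMP-specific gene, changed by 0.78 ± 0.16 (edgeR adjusted p = 0.0252) in endocardial-like nuclei, a call that 8 of 13 alternatives lost, with 0.68 (edgeR adjusted p = 0.245) without that library. In cardiomyocyte-like nuclei the cAMP-binding Popeye genes went opposite ways, Popdc3 by 0.98 ± 0.15 (edgeR adjusted p = 0.0103) and Popdc2 by -1.03 ± 0.20 (edgeR adjusted p = 0.0237), and without the first R403Q-EMPA library both calls were lost, at 0.98 (edgeR adjusted p = 0.0653) and -1.27 (edgeR adjusted p = 0.0575). Creb5, a transcription factor of the CREB family, had 73.0 and 81.3 CPM in WT-CD, 109 and 162 CPM in R403Q-CD, and 249 and 232 CPM in R403Q-EMPA, a change of 1.56 ± 0.21 (edgeR adjusted p = 0.00592) that held in 13 of 13 alternatives, at 1.55 without that library. Adipocyte markers in cardiomyocyte-like nuclei were 10.7 and 4.24 CPM in R403Q-EMPA against 0.298 to 1.96 CPM in the other groups. Endothelial markers were 180 and 128 CPM against 88.4 to 126 CPM, and cluster 25 was a larger part of the class in R403Q-EMPA. Their part in the changes of Pde8a, Popdc3, Popdc2 and Creb5 was not tested.

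Npr1, the natriuretic peptide receptor that makes cGMP, changed by 1.73 ± 0.31 (edgeR adjusted p = 0.0401) in fibroblast-like nuclei, a call lost in 8 of 13 alternatives, with 1.18 (edgeR adjusted p = 0.293) without the first R403Q-EMPA library. It was low, at 3.94 and 3.97 CPM in WT-CD, 4.96 and 5.75 CPM in R403Q-CD, and 18.3 and 9.37 CPM in R403Q-EMPA. Summed endocardial markers in these nuclei were 213 and 157 CPM in R403Q-EMPA against 124 to 146 CPM in the other 4 libraries, and endothelial markers 287 CPM in the first R403Q-EMPA library and 146 to 223 CPM in the others, and their part in this change was not tested. Of the anchoring genes, Akap7 and Akap5 fell. Akap7 in pericyte-like nuclei had 197 and 189 CPM in WT-CD, 191 and 202 CPM in R403Q-CD, and 127 and 125 CPM in R403Q-EMPA, a change of -0.67 ± 0.14 (edgeR adjusted p = 0.0472) against R403Q-CD, the only called pair of the list there, and -0.62 ± 0.14 (edgeR adjusted p = 0.0365) against WT-CD. Summed pericyte markers of the class were 11187 and 10582 CPM in R403Q-EMPA against 11634 to 13208 CPM in the other groups. Endothelial and cardiomyocyte markers there are given above, and the part of all these in the fall was not tested. Both Akap7 calls were lost when any 1 of the R403Q-CD or R403Q-EMPA libraries was left out, and without the first R403Q-EMPA library they were -0.65 (edgeR adjusted p = 0.314) and -0.61 (edgeR adjusted p = 0.26). Akap5 in endothelial-like nuclei changed by -1.58 ± 0.28 (edgeR adjusted p = 0.0474) against WT-CD, and that call too was lost without either R403Q-EMPA library, with -1.33 (edgeR adjusted p = 0.469) without the first. Summed lymphoid markers in endothelial-like nuclei were 7.42 and 17.2 CPM in R403Q-EMPA against 39.8 to 48.1 CPM in the other 4 libraries, and their part in this change was not tested.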

How the data were processed

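Nuclei of frozen mouse left ventricle were sequenced in 6 libraries. The authors deposited raw UMI counts per gene and barcode for each library, made with Cell Ranger 8.0.1 on GRCm39 according to the submitters' processing notes. The annotation release and the counting of intronic reads are not given in the sources used here. From those counts, barcodes with at least 500 UMIs, at least 300 genes and at most 5% mitochondrially encoded UMIs were kept, 18.9 to 39.0% of barcodes being over the last limit, least in WT-CD and most in R403Q-EMPA, and doublets predicted by Scrublet in scanpy 1.11.5 were removed (3.68 to 6.45%). Nuclei were clustered over 2000 variable genes, 30 principal components and 15 neighbours (Leiden resolution 1, seed 1, igraph 0.11.9). A cluster was named where at least 3 markers of a class exceeded 2-fold their level in the remaining clusters pooled and were detected in 10% or more of its nuclei. One cluster of 41 nuclei led by haemoglobin genes stayed unnamed, and 61 Schwann-like nuclei were too few to test.

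Counts were summed per library and class, without pooling libraries, and tested with edgeR 4.0.16 in R 4.3.3 (quasi-likelihood, filterByExpr, TMM, prior count 2, 6 libraries, 3 residual degrees of freedom), with Benjamini-Hochberg adjustment over all genes of a class and comparison. Standard errors were derived from the fold change and its F statistic. Fits of some classes were also run on simulated counts that held no difference in cell makeup between libraries. The check that fold changes were recovered left out smooth muscle-like nuclei. Shares of nuclei with a UMI were computed after thinning each nucleus to 500 UMIs, since depth differed between classes and libraries. DESeq2 1.42.0, other size factors, no filter on low counts, only the groups compared, no mitochondrial filter, no doublet removal, resolution 0.5 and leaving out each library were the alternatives. All 10 genes were described whatever their result. Of the pathway list, called genes were named, at most 4 per class and comparison, and for each of the 10 genes the 3 with the highest Pearson r of log2(CPM + 1) were named among genes averaging at least 10 CPM. Some genes that this rule selects are not reported here. The genes and lists were chosen with earlier results of these data known. Clusters were named in the text by 1 to 3 of their 10 leading genes, picked after the values were seen. Replicate numbers follow accession order and name libraries only.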

Additional observations from a re-analysis of the deposited data

Results flagged for a closer look

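A test of the difference between classes, with library as a block in edgeR's quasi-likelihood fit, picked out 7 results in which the response of a phosphodiesterase gene differed between cell classes. Values are differences of log2 fold changes, the first class minus the second.

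In R403Q-EMPA against R403Q-CD, Pde1c differed by -2.07 between cardiomyocyte-like and endothelial-like nuclei and by -2.21 between fibroblast-like and endothelial-like nuclei. Pde10a differed by 1.26 between cardiomyocyte-like and endothelial-like nuclei, and Pde7b by -0.85 between cardiomyocyte-like and fibroblast-like nuclei. In R403Q-EMPA against WT-CD, Pde1c differed by -1.25 between cardiomyocyte-like and endothelial-like nuclei and by -2.04 between fibroblast-like and endothelial-like nuclei, and Pde10a differed by 1.52 between cardiomyocyte-like and endothelial-like nuclei. Pde10a had few UMIs in cardiomyocyte-like nuclei, at 2.78 to 12.6 CPM. Each of the 7 lost the threshold without at least 1 library. The 4 results against R403Q-CD lost it without the first R403Q-CD library and the 3 against WT-CD without either WT-CD library. Both Pde1c results against WT-CD, and the Pde10a and Pde7b results against R403Q-CD, also lost it without the first R403Q-EMPA library. The Pde7b result lost it without the second R403Q-CD or the second WT-CD library too.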

How the results depend on the processing

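No paired analysis was possible because replicate numbers follow accession order and pair no libraries across groups. With 2 libraries per group, 3 residual degrees of freedom and as few as 27 nuclei per library in the smaller classes, the spread behind each test rests on few samples, and no detection limit was computed.

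For the 10 genes, edgeR calls in R403Q-CD against WT-CD went from 0 to 8 with no filter on low counts and to 1 with only the groups compared, and ran from 0 to 2 when 1 library was left out. In R403Q-EMPA against R403Q-CD they went from 1 to 6 with DESeq2's Wald test, 16 with no filter, 5 with only the groups compared and 2 with no mitochondrial filter, and ran from 1 to 8 when 1 library was left out. R403Q-EMPA against WT-CD had 4 calls, and 20 with no filter, and they ran from 3 to 12 when 1 library was left out. For the pathway list, calls in R403Q-CD against WT-CD went from 0 to 2 with DESeq2 and 10 with no filter, and stayed at 0 when 1 library was left out. In R403Q-EMPA against R403Q-CD they went from 1 to 8 with DESeq2, 26 with no filter and 5 with only the groups compared, and ran from 0 to 8. R403Q-EMPA against WT-CD had 9 calls, 15 with DESeq2 and 40 with no filter, and they ran from 2 to 17. For differences between classes, calls went from 0 to 4, from 4 to 9 and from 3 to 9 with no filter in the same order of comparisons, and ran from 0 to 1, from 0 to 9 and from 0 to 10 when 1 library was left out. The causes were not tested. Over 33 single results, 300 alternative values kept direction and side of the threshold, 61 lost the threshold, 42 gained it and 0 reversed.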
